A study of Mus musculus with 53 samples.

Results

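The genes whose products fill the granules and the cytosol of neutrophils were followed through a mouse model of synovial sarcoma made from embryonic mesenchymal cells (eMCs). The members were *S100a8*, *S100a9*, *Lcn2*, *Ngp*, *Camp*, *Ltf*, *Elane*, *Mpo*, *Mmp8* and *Mmp9*, each found by its symbol in the platform annotation, so that 10 of 10 listed genes were measured, with 11 probe sets (2 for *Mmp9*), out of 17097 genes named by a probe set of their own. The data were 53 GeneChip arrays of total RNA in 9 groups. The starting cells were mesenchymal cells of BALB/c embryo limbs, transduced with the pMYs-IRES-GFP retrovirus alone (eMC empty vector, n = 4) or with the same vector carrying FLAG-tagged human *SS18-SSX1* (eMC SS18-SSX1, n = 4), and both were taken at 48 h. The SS tumors (n = 12) had grown under the skin of nude mice from eMCs given *SS18-SSX1*. Tumors of the SS214 group (n = 13) came from eMCs whose vector carried *SS18-SSX1* and, in the place of GFP behind the IRES, the genomic sequence of *miR-214*, so the groups of tumors also differed in GFP. SS40 and SS64 are cell lines of this model, each 1 line, cultured and transfected with *miR-214* or with a negative control (NC, n = 4 for each line and treatment). The last group was a mix of RNA from normal organs (n = 4), bone marrow and lung among them, which the labels and the study's figure legends call mouse and its methods call human. Nude mice have no thymus and few T cells but keep their neutrophils, so the tumors, unlike the lines, grew where neutrophils of a host could enter.

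Neutrophils make their granule proteins in a fixed order while they mature in the bone marrow. Promyelocytes fill the azurophil granules with myeloperoxidase (*Mpo*) and neutrophil elastase (*Elane*), later myelocytes fill the specific granules with lactoferrin (*Ltf*), cathelicidin (*Camp*), neutrophilic granule protein (*Ngp*), lipocalin (*Lcn2*) and neutrophil collagenase (*Mmp8*), and gelatinase (*Mmp9*) comes later still. *S100a8* and *S100a9* encode the subunits of calprotectin, the most abundant cytosolic protein pair of the mature neutrophil. Transcripts of the azurophil and specific granule proteins are mostly shut off before the cell leaves the marrow, whereas those of calprotectin persist in circulating neutrophils. Several members are made by other cells too: *Lcn2* by fibroblasts and epithelia under inflammatory stimuli, and *Mmp9* by osteoclasts and macrophages.

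Most members were called together in several comparisons below, and the azurophil genes only in part. The promoters of 4 are shown: the calprotectin gene with the largest change in eMCs, a specific granule gene, and both azurophil genes. The 250 bases before the transcript start are from RefSeq on GRCm38.p6, written 5′ to 3′ on the gene's own strand, and capitals mark TTGCNNAA (the C/EBP type, TTNNGCAA on the other strand) and GAGGAA (the ETS type bound by PU.1, TTCCTC on the other strand). *S100a9* lies on chr3:90695722-90695971 (minus strand), *Ngp* on chr9:110419558-110419807 (plus), *Mpo* on chr11:87793534-87793783 (plus) and *Elane* on chr10:79886062-79886311 (plus).
S100a9: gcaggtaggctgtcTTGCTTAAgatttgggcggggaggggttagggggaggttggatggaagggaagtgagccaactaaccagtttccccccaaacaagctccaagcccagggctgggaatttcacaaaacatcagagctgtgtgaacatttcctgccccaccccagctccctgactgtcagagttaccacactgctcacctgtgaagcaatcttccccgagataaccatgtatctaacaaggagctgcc
Ngp: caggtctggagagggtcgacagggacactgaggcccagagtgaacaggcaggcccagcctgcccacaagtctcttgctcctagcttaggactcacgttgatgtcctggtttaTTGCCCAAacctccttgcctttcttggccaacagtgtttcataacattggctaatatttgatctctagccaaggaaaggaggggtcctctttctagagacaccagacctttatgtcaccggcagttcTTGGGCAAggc
Mpo: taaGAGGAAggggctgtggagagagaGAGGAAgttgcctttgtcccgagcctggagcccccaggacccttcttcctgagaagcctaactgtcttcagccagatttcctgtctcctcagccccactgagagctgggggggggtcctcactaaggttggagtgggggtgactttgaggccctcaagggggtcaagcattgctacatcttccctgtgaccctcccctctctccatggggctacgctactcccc
Elane: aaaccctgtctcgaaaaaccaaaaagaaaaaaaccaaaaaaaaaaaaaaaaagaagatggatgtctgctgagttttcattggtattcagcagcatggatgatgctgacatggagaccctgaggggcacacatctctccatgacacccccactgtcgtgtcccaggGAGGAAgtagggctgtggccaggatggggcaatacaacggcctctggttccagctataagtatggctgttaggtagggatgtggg
TTGCNNAA stood in the windows of 5 of the 9 members with a RefSeq promoter here, against 9.56% of all 32851 windows of the same length. *S100a9* held it at 236 to 229 bases before the start, and *Ngp* held it at 138 to 131 and again at 11 to 4. Neither azurophil gene held these letters, and *S100a8* and *Camp*, which moved with *S100a9* and *Ngp* below, did not hold them either. GAGGAA stood in 6 of 9 members against 23.3% of all windows, and among them were *Mpo*, with copies at 247 to 242 and 224 to 219, and *Elane*, with a copy at 85 to 80. The narrower form TTGCNCAA, a part of TTGCNNAA, stood in 4 of 9 members and 2.61% of windows. The letters GCAAT, which can overlap with both, were found in 9 of 9 members and in 23.1% of windows, and the RUNX-type letters TGTGGT in 1 of 9 and 14% of windows. A match describes the letters only. *S100a8* and *S100a9* lie 22.6 kb apart on chromosome 3, and *Camp*, *Ngp* and *Ltf* follow each other on chromosome 9 with 570 kb and 596 kb between neighbours.

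All values below are log2 levels, the log2 of the deposited intensity of a probe set, where intensities under a common floor of 11.7 were set to it (log2 3.55). A gene was called changed when the limma adjusted p was under 0.05 and the fold change over 2. Array medians ran from 22.5 to 26.9 on the intensity scale, and the highest intensity of any probe set was 11034, so that levels of *S100a9* in the mix (mean intensity 8544) lay near the top of the range. The signal of the *Gapdh* probe set at the 3′ end over that at the 5′ end, a measure of RNA integrity, set SS tumors apart, with a log2 ratio of 0.849 ± 0.369 (SD, n = 12) against 0.057 ± 0.137 (n = 13) in SS214 tumors and 0.01 ± 0.036 (n = 4) in empty-vector eMCs. The labels do not say whether replicates were separate cultures or extractions. Fewer neutrophils and less RNA per neutrophil cannot be told apart in such bulk samples. The eMC cultures gave signal for blood cell genes: the mean log2 level of 10 macrophage genes was 6.08 ± 0.054 with the empty vector, where the SS40 and SS64 cultures gave group means of 4.24 to 4.39.

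**Figure D1:**
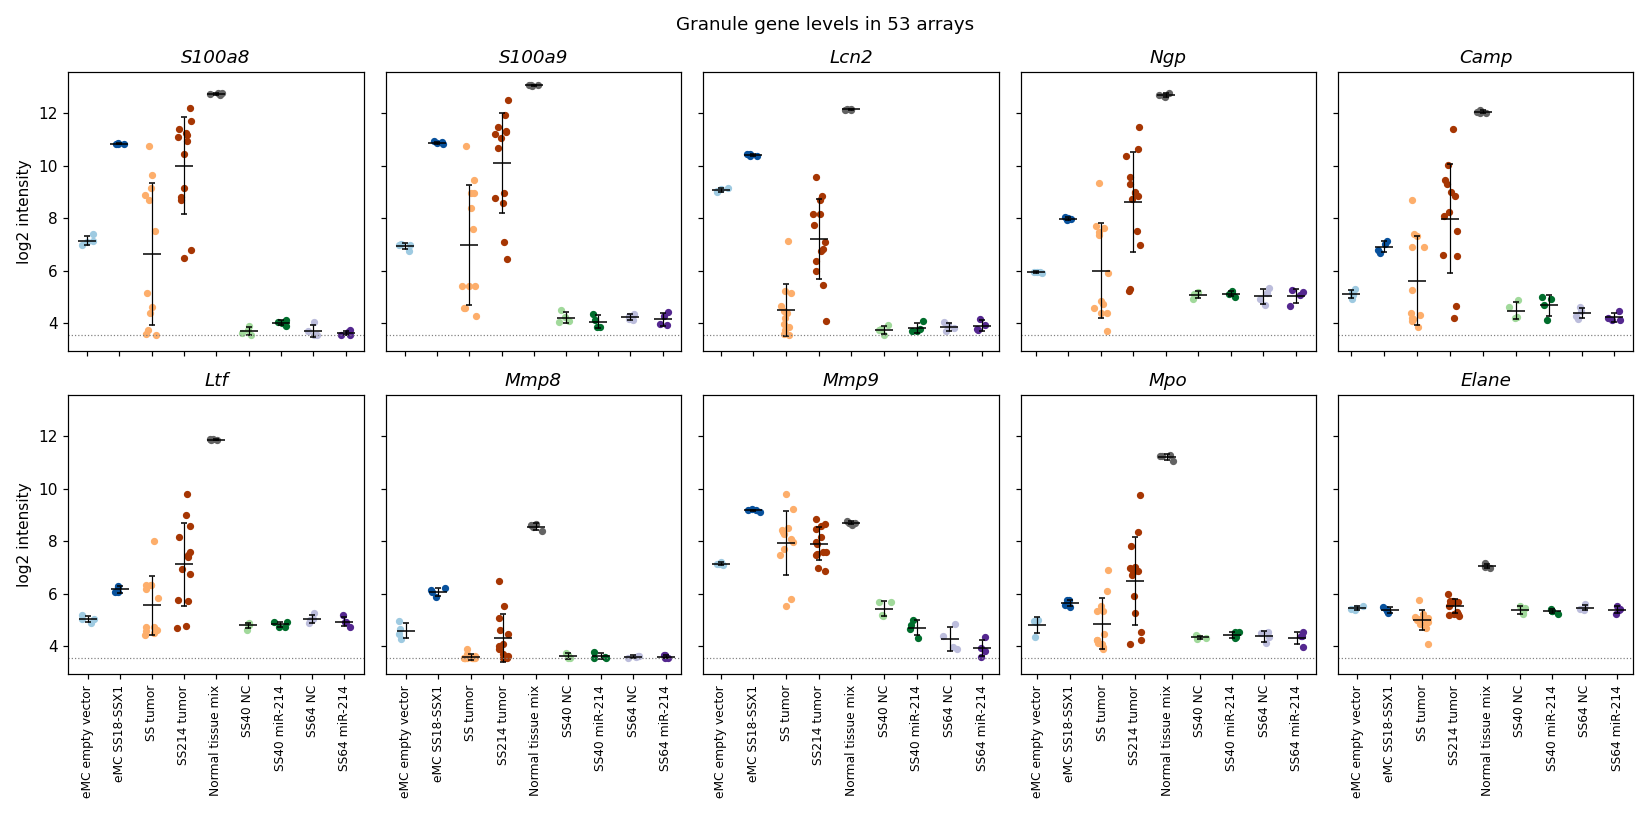
Log2 level of each of the 10 members (panels) in every array, by group (columns); points are arrays, black marks are group means with bars of 1 SD, and the dotted line is the floor. The normal tissue mix stands highest for every member but *Mmp9*, the cell lines lie low, and the tumors spread over several log2 units.

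Across the 9 groups the order of the mean levels was alike at the top for most members and split below it. The mix was highest for 9 of 10 members, above every other array, and *Mmp9* was the exception, with 9.18 in eMCs carrying *SS18-SSX1* against 8.71 in the mix. Below the mix, *S100a8*, *S100a9*, *Lcn2* and *Mmp8* were next highest in eMCs with *SS18-SSX1*, and *Ngp*, *Camp*, *Ltf*, *Mpo* and *Elane* were next highest in SS214 tumors. Below the mix the tumor groups overlapped with most of their neighbours in this order because of their own spread. The 16 arrays of the cell lines gave low levels, at 3.84 to 4.49 for *S100a9* and at 3.55 to 3.78 for *Mmp8*, and serve here as cultured cells away from a host. For *Elane* the lines lay at 5.22 to 5.60, a range that holds all 8 eMC arrays, and 10 of 12 SS tumors were below every line array.

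The first comparison asked what *SS18-SSX1* did to eMCs within 48 h. In these cultures 8 of 10 members rose, where 2.72% of 15344 genes tested were called higher and 0.912% lower. The median change of the members was 1.63 on the log2 scale, against 0 over all genes tested. Calprotectin rose most. *S100a9* was at log2 levels of 6.75, 7.0, 6.99 and 6.96 with the empty vector and at 10.89, 10.83, 10.86 and 10.93 with *SS18-SSX1*. The groups lay far apart beside the spread within each. The log2 difference was 3.95 (SE 0.049, 15.5-fold, limma adjusted p = 6.42e-17). Its partner *S100a8* went from 7.1, 7.11, 6.98 and 7.39 to 10.83, 10.87, 10.84 and 10.83, again with no overlap. That made a log2 difference of 3.70 (SE 0.063, 13-fold, limma adjusted p = 1.61e-15).

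The genes of the specific granules rose together but by less. *Ngp* was at 5.96, 5.94, 5.9 and 5.96 with the empty vector and at 7.96, 8.02, 8.03 and 7.93 with *SS18-SSX1*, a 4.13-fold rise (limma adjusted p = 7.15e-14). *Camp*, the antimicrobial cathelicidin, stood at 4.92 to 5.28 before and at 6.66 to 7.11 after, a 3.45-fold rise (limma adjusted p = 1.44e-09). None of these arrays overlapped with the other group. *Mmp8* rose 2.78-fold, from 4.28 to 4.97 up to 5.87 to 6.21 (limma adjusted p = 1.19e-07). *Lcn2* differed from the rest in being high already with the empty vector, at 9.09, 8.98, 9.16 and 9.02, and it reached 10.44, 10.44, 10.38 and 10.36, a 2.54-fold rise (limma adjusted p = 2.73e-13). *Ltf* rose 2.2-fold, from 4.88 to 5.18 up to 6.06 to 6.30 (limma adjusted p = 3.07e-08). With the empty vector *Ltf* was within the range of the cell lines, 4.64 to 5.28. Of the gelatinase granule, *Mmp9* went from 7.09, 7.15, 7.14 and 7.21 to 9.22, 9.18, 9.14 and 9.18, a 4.09-fold rise (limma adjusted p = 5.69e-15). A second *Mmp9* probe set moved alike, from a mean of 5.77 to 7.67.

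The azurophil members were not called in this comparison. *Mpo* was at 4.36, 5.0, 4.96 and 4.92 with the empty vector and at 5.51, 5.57, 5.75 and 5.75 with *SS18-SSX1*. The groups did not overlap, yet the 1.79-fold difference (log2 0.84, SE 0.126, limma adjusted p = 5.91e-05) stayed under the 2-fold threshold, which *Ltf* passed at 2.2-fold. *Elane* was at 5.43, 5.39, 5.47 and 5.55 against 5.26, 5.43, 5.5 and 5.33, with overlapping groups, and differed by -0.08 on the log2 scale (SE 0.079, limma adjusted p = 0.448). All these *Elane* values lay within the range of the lines, 5.22 to 5.60, and the mix reached only 7.07, so a small rise could not be seen. In all, 9 of 10 members had groups that did not overlap, where 46.5% of all genes did. Other genes of the azurophil granule did pass the test: *Ctsg* (cathepsin G) rose by 1.33 on the log2 scale and *Prtn3* (proteinase 3) by 1.29, so that 2 of 5 listed genes made early in granulopoiesis were called higher. When all 53 arrays entered 1 fit, which shares the wide spread of the tumors with the cultures, 4 members were still called (*S100a8*, *S100a9*, *Mmp8* and *Mmp9*), and the adjusted p of *Ngp*, *Camp*, *Lcn2* and *Ltf* was 0.16 to 0.332.

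Other neutrophil genes followed unevenly. Of 9 specific granule genes tested, 6 were called higher and 3 were not, with a list median of 1.34 on the log2 scale against 0 for all genes. The largest change in that list was that of *Olfm4* (olfactomedin 4), from a mean log2 level of 4.17 to 7.58. *Chil3*, a chitinase-like protein of myeloid cells, was at the floor in all 4 arrays with *SS18-SSX1*, while the mix reached 11.06. Among 8 surface and signalling genes of mature neutrophils only *Fpr2*, a formyl peptide receptor, was called, with a rise of 1.59, and the list median was 0.35. *Padi4*, which modifies histones in mature neutrophils, was at the floor in all 8 eMC arrays. None of 8 neutrophil attractants or growth factors was called, with a list median of -0.038.

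Genes of other blood cells moved in the same cultures. Of 9 mast cell genes 6 were called higher, and their mean log2 level went from 4.32 (range 4.26 to 4.41) to 6.81 (6.78 to 6.87). *Tpsab1*, a mast cell tryptase, rose by 5.15 and *Cpa3*, the mast cell carboxypeptidase, by 4.89. Of 7 osteoclast genes 3 were called higher, led by *Acp5* (2.05), and the list mean went from 5.52 to 6.26. None of 9 macrophage genes tested was called, and their mean went from 6.08 to 6.30. *F13a1*, a monocyte gene, fell by 1.17. Of 5 red cell genes 1 was called, *Hba-a1* (alpha globin), which rose by 2.64 from a mean of 6.19 to 8.82. The part of mast cell, osteoclast, macrophage or red cell RNA in the members' rise was not tested.

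SS tumors were compared first with the mix, which holds bone marrow. There 9 of 10 members were lower, where 13.7% of 15678 genes were called lower and 11.3% higher, and the median of the members was -6.21 against 0.065 for all genes. *Lcn2* was at 3.55, 4.28 and 7.11 (lowest, median and highest of 12 tumors) against 12.16, 12.12, 12.13 and 12.14 in the mix. No tumor came near the mix, and the level was 201-fold lower (limma adjusted p = 1.14e-10). *Ngp* (104-fold), *Camp* (86.6-fold), *Mpo* (82.1-fold), *Ltf* (79.9-fold), *S100a8* (68.6-fold), *S100a9* (67.7-fold) and *Mmp8* (31.2-fold) were lower too. *Elane* was 4.25-fold lower, at 4.10, 5.03 and 5.77 against 6.98 to 7.18. These 9 members had groups that did not overlap, as did 48.4% of all genes. *Mmp9* was at 5.52, 8.20 and 9.81 in the tumors and at 8.64 to 8.78 in the mix, and the change of -0.77 on the log2 scale did not pass the test (SE 0.572, limma adjusted p = 0.27). Genes that rodents have and humans lack were high in the mix, *Ngp* at a mean log2 level of 12.69 and *Cxcl15* at 11.14.

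Against eMCs with the empty vector, which served as controls in the *SS18-SSX1* comparison as well, the only member called was *Lcn2*, where 14.5% of 15640 genes were called higher and 8.67% lower. It had been at 8.98 to 9.16 in the cells, above every tumor, and was 23.8-fold lower in SS tumors (log2 difference -4.57, SE 0.462, limma adjusted p = 1.32e-07). *Mmp8* lay at the floor in 9 of 12 SS tumors, its groups did not overlap either, and its log2 difference of -0.999 (SE 0.091, limma adjusted p = 3.16e-08) fell just short of 2-fold. It was called when no floor was set, and when replicate 2 or replicate 3 of the empty vector was left out, which gave 2 called members. Groups lay apart for these 2 of 10 members and for 49.2% of all genes. *Elane* was lower by less than 2-fold (-0.47 on the log2 scale, SE 0.187, limma adjusted p = 0.0351). The other 7 members had log2 differences from -0.51 to 0.79, with standard errors of 0.456 to 1.25 that reflect the wide spread between tumors.

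Cultured lines of the model give levels of sarcoma cells in culture, away from a host. Whether tumor cells in a host have the same levels was not tested. Against SS40 with NC 3 members were higher in SS tumors, where 16.3% of 15639 genes were: *S100a8* by 2.94 on the log2 scale (limma adjusted p = 0.0458), *S100a9* by 2.78 (0.0267) and *Mmp9* by 2.51 (0.000948). The same genes were called against SS64 with NC, where 15.5% of 15661 genes were called higher, with *Mmp9* at 3.66 (limma adjusted p = 2.59e-05), *S100a8* at 2.92 (0.0474) and *S100a9* at 2.75 (0.0283). Both comparisons share the 12 SS tumors. The calls of calprotectin were at the edge of the test: without any 1 of the replicates of SS40 1 or 2 members were called, and without any 1 of SS64 only *Mmp9* was. Apart groups were seen for none of the members against SS40 and for *Mmp9* against SS64, where 49.9% and 51.3% of all genes had them. *Ngp*, *Camp*, *Ltf*, *Mpo* and *Lcn2* had log2 differences of 0.48 to 1.24 against either line and were not called.

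**Figure D2:**
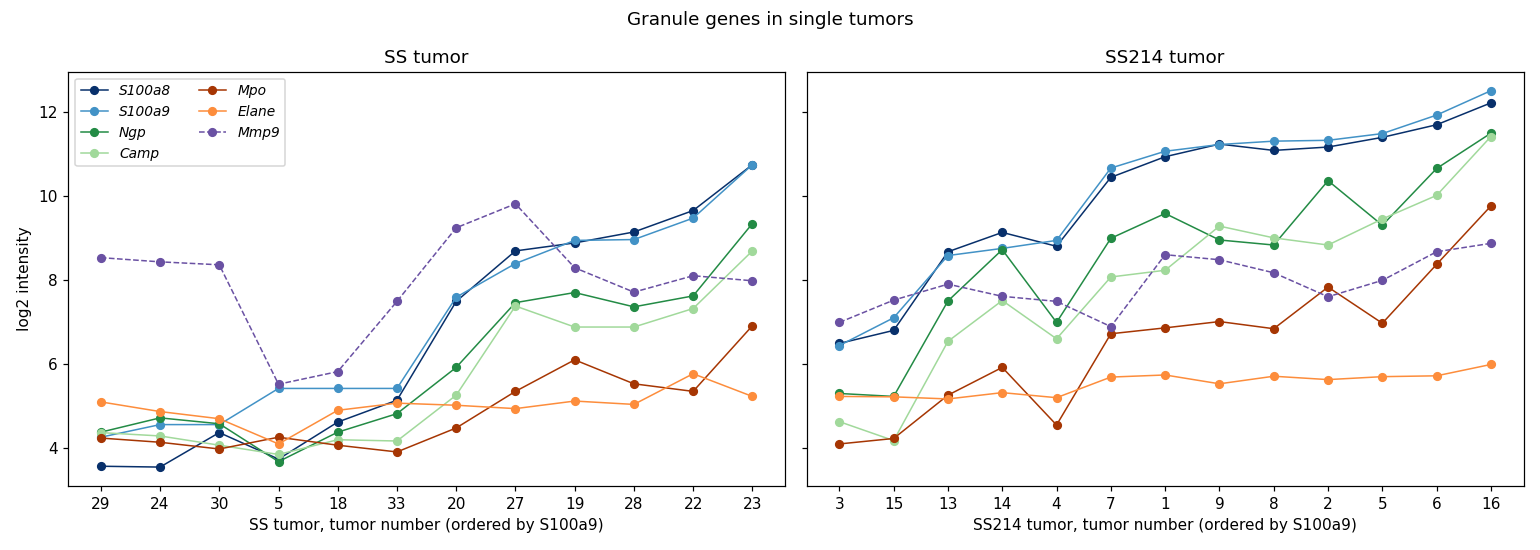
Log2 level of 7 members (coloured lines) in each SS tumor (n = 12) and SS214 tumor (n = 13), with tumors ordered along the x axis by *S100a9* within their group. *S100a9* runs from 4.26 to 10.74 in SS tumors and from 6.44 to 12.5 in SS214 tumors, and most of the members climb with it, while *Mmp9* (dashed) in SS tumors is lowest in tumors 5 and 18.

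Single tumors differed more than the groups did. *S100a9* was at 4.26, 6.51 and 10.74 (lowest, median and highest) in SS tumors, with 6 tumors at 5.42 or less, 6 at 7.59 or more and none between. In SS214 tumors it was at 6.44, 11.06 and 12.5, with 5 tumors at 8.94 or less and 8 at 10.66 or more. Tumor 23 was the highest of the SS group and tumor 16 the highest of the SS214 group. *Mmp9* ran on its own, lowest in SS tumors 5 (5.52) and 18 (5.82) and highest in tumor 27 (9.81). The plot of tumors in order of *S100a9* shows these breaks. Above all 16 arrays of the cell lines lay *S100a9* in 11 of 12 SS and 13 of 13 SS214 tumors, *Mmp9* in the same numbers, and *Lcn2* in 7 and 12. For *Ngp*, *Camp* and *Ltf* it was 6 SS and 11 SS214 tumors each. Of the azurophil genes *Mpo* was above the lines in 5 SS and 11 SS214 tumors and *Elane* in 1 and 7. *Mmp8* was above them in 1 and 8.

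The comparison of SS214 with SS tumors asked what *miR-214* in the tumors' vector went along with. Of 10 members 7 were higher in SS214 tumors, where 0.939% of 15661 genes were called higher and 1.06% lower, and their median log2 difference was 2 against 0.042 for all genes. *S100a8* was at 3.55, 6.31 and 10.74 in SS and at 6.49, 10.93 and 12.21 in SS214 tumors. The ranges overlapped widely, and the log2 difference was 3.37 (SE 0.865, 10.4-fold, limma adjusted p = 0.00316). For *S100a9*, whose ranges are given above, it was 3.12 (SE 0.787, 8.7-fold, limma adjusted p = 0.00279). Every member overlapped between the groups, and over all genes 1.26% did not. The study counted esterase-stained granulocytes in tumor tissue and reported no difference between tumors with and without *miR-214*. That is a count of cells and not of RNA, and how it relates to these levels was not tested.

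**Figure D3:**
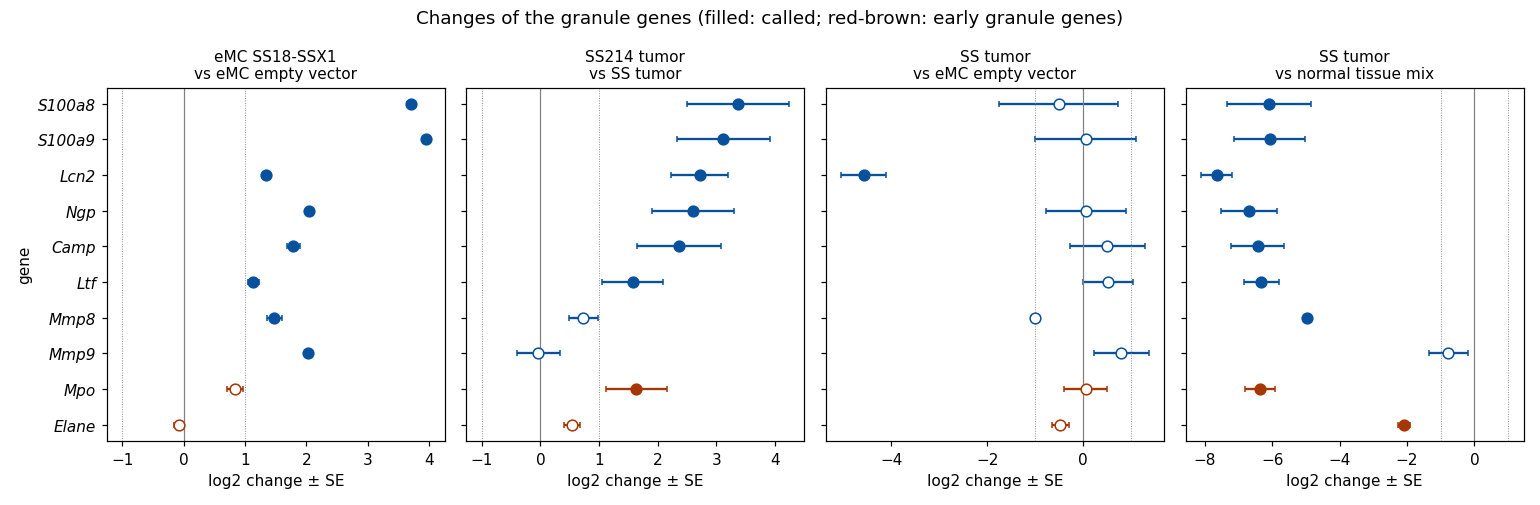
Log2 difference of each member (rows) in each comparison (panels), with bars of 1 standard error from limma. Filled points were called and open points were not, dotted lines mark a 2-fold difference, and the azurophil genes *Mpo* and *Elane* are in red-brown.

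Among the specific granule genes *Lcn2* changed with the smallest adjusted p. It was at 3.55, 4.28 and 7.11 in SS and at 4.07, 7.10 and 9.58 in SS214 tumors, so that the median SS214 tumor was about as high as the highest SS tumor (log2 difference 2.72, SE 0.489, 6.58-fold, limma adjusted p = 0.000122). *Ngp* went from 3.68, 5.37 and 9.34 to 5.23, 8.95 and 11.49 (6.1-fold, limma adjusted p = 0.00444). *Camp* went from 3.85, 4.82 and 8.69 to 4.18, 8.23 and 11.41 (5.16-fold, limma adjusted p = 0.0102). Lactoferrin followed: *Ltf* went from 4.44, 5.29 and 8.03 to 4.69, 7.41 and 9.81 (2.97-fold, limma adjusted p = 0.0179). *Mmp8*, at the floor in 9 of 12 SS and 3 of 13 SS214 tumors, was 1.65-fold higher (limma adjusted p = 0.0214) and under the fold threshold. The gelatinase gene was not called: *Mmp9* was at 5.52, 8.20 and 9.81 in SS and at 6.89, 7.90 and 8.87 in SS214 tumors, and the groups differed by -0.03 on the log2 scale (SE 0.364, limma adjusted p = 0.949). Its second probe set gave means of 7.17 and 7.05.

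Both azurophil genes were higher, *Mpo* past the fold threshold and *Elane* by less and near the level of the lines. *Mpo* was at 3.91, 4.37 and 6.91 in SS and at 4.10, 6.84 and 9.76 in SS214 tumors (log2 difference 1.63, SE 0.518, 3.1-fold, limma adjusted p = 0.0141). *Elane* was at 4.10, 5.03 and 5.77 against 5.17, 5.63 and 5.99, a narrow difference of 0.54 on the log2 scale (SE 0.129, 1.45-fold, limma adjusted p = 0.00185). The lines lay at 5.22 to 5.60 for *Elane*, and 10 of 12 SS tumors were below every line array. Of 13 SS214 tumors 7 were above the lines and 2 below them. The difference thus came in part from SS tumors that lay under the level of cultured cells. *Ctsg* (1.45) and *Prtn3* (1.15) were called as well, so that 3 of 5 early genes rose, with a list median of 1.15 against 0.042 for all genes. Of 10 specific granule genes 6 rose, *Chil3* by 1.73 and *Olfm4* by 1.55 among them. None of 8 genes of the mature neutrophil surface was called, and their list median was 0.536. Of the attractants 2 of 8 were higher, *Ppbp* (1.76), which platelets carry, and *Cxcl15* (1.92), which the lung makes.

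**Figure D4:**
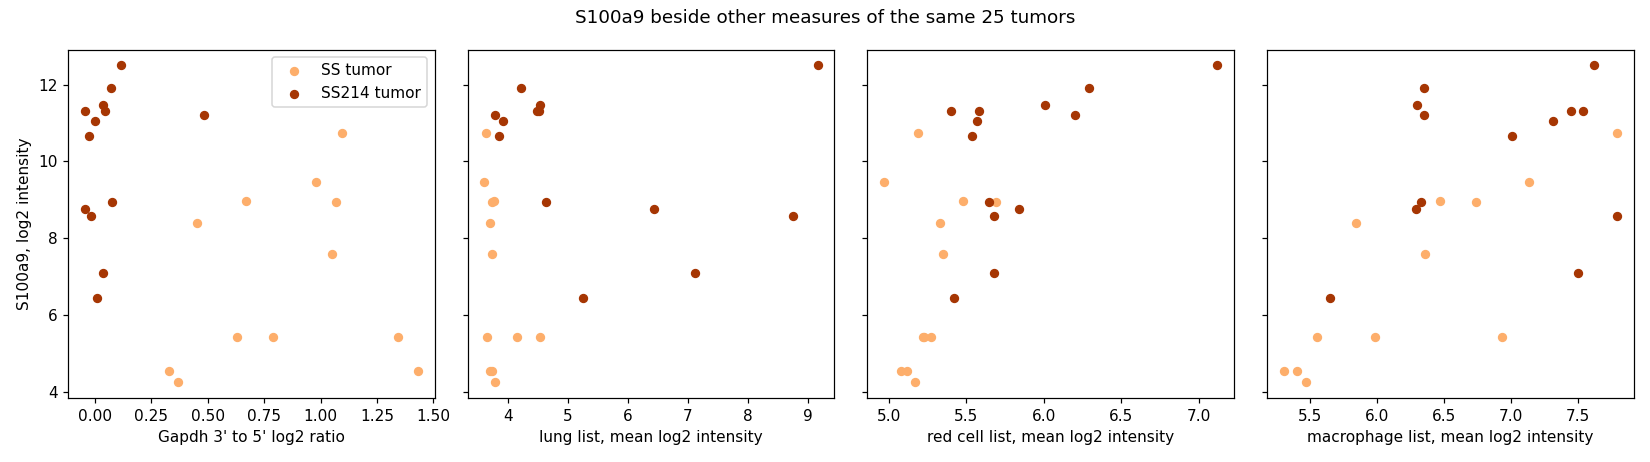
Log2 level of *S100a9* in each tumor against the *Gapdh* ratio (log2) and the mean log2 level of the lung, red cell and macrophage lists (panels), with SS and SS214 tumors in different colours. The groups of tumors overlap in the *Gapdh* ratio through 1 SS214 tumor, and 6 SS214 tumors lie above every SS tumor in the lung list.

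Several other measures moved with the same groups. The *Gapdh* ratio ran from 0.326 to 1.432 in SS and from -0.045 to 0.483 in SS214 tumors. The mean log2 level of 4 lung genes was 3.80 (range 3.60 to 4.53) in SS and 5.43 (3.77 to 9.17) in SS214 tumors, with 2 of 4 called, *Sftpc* and *Sftpa1*. The mean of 5 red cell genes was 5.26 (4.97 to 5.69) against 5.85 (5.4 to 7.12), with 1 of 5 called, and that of 10 macrophage genes was 6.25 (5.30 to 7.79) against 6.88 (5.65 to 7.79), with 1 of 10 called. No gene of the macrophage or lung list was at the floor throughout either group. The SS214 tumors above every SS tumor in the lung list were tumors 3, 4, 13, 14, 15 and 16. The first 5 of these were the 5 with the lowest *S100a9* of their group, and tumor 16 had the highest. Without these 6 tumors the same number of members, 7, was called, with *S100a8* higher by 4.50 on the log2 scale, and without tumor 16 alone 7 were called. Leaving out the 5 lowest in *S100a9* favours a larger difference, so the fit without the 6 tumors cannot tell the part of lung RNA.

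With the mean of the lung list as a covariate 7 members were called too, but other covariates changed the count. With the red cell list as a covariate, *Lcn2* alone was called, at 1.90 (adjusted p = 0.0263), and *S100a8* was at 1.99 (adjusted p = 0.187). With the *Gapdh* ratio *Lcn2* again was the only member called, at 3.11 (adjusted p = 0.0388), while *S100a8* was at 4.82 (adjusted p = 0.06) and *S100a9* at 4.30 (adjusted p = 0.0659). With the macrophage list 4 were called, *S100a8*, *S100a9*, *Lcn2* and *Ngp*. The *Gapdh* ratio nearly parts SS from SS214 tumors, so RNA integrity and group cannot be told apart in this design. The part of red cell or macrophage RNA in the difference was not tested beyond these fits.

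To set early against late genes on a common scale, the mean log2 level of *Ltf*, *Camp* and *Ngp* less that of *Elane* and *Mpo* was taken relative to the mix, where it is 0. This index was -2.83 ± 0.224 (SD, n = 4) for the empty vector and -1.55 ± 0.092 (n = 4) for *SS18-SSX1* in eMCs. In SS tumors it was -3.28, -2.47 and -0.45 (lowest, median and highest of 12) and in SS214 tumors -3.06, -0.92 and -0.03. The group means of the lines were -3.07 to -3.18, the value when all these genes are at background. *Elane* enters the index at or below the level of the lines in eMCs and most SS tumors, and a lower *Elane* raises the index.

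**Figure D5:**
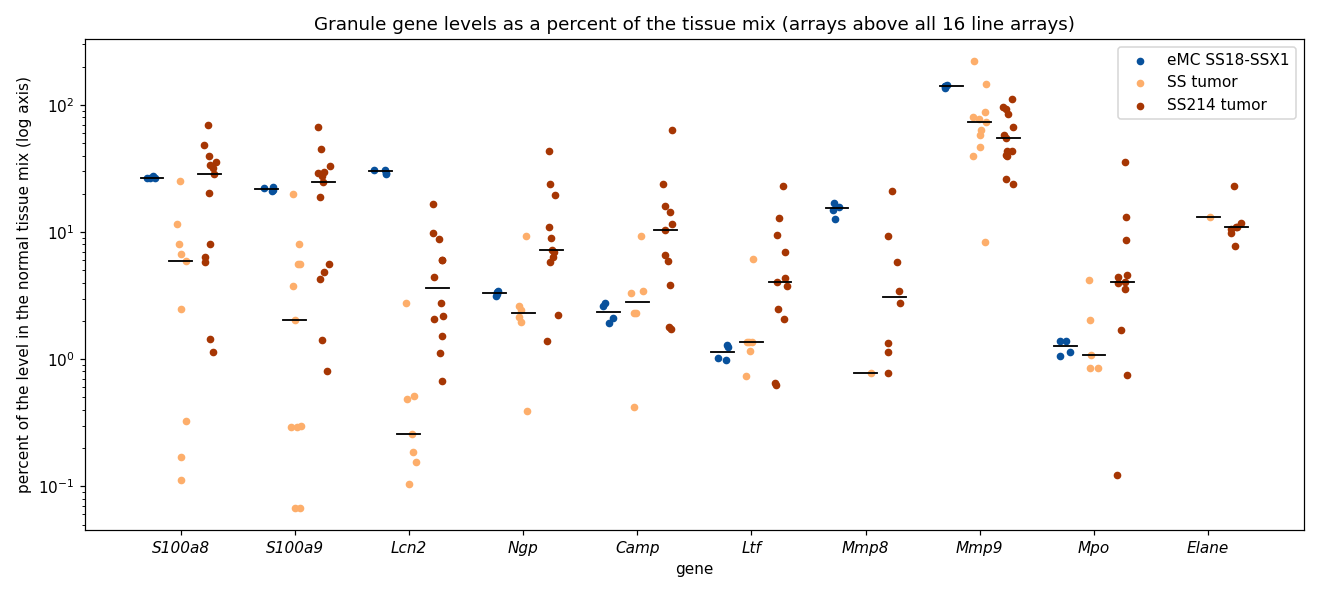
Intensity of each member above the median of the cell lines, as a percent of the same in the normal tissue mix (log axis), in arrays above every cell line array; black bars are medians of the arrays plotted only. In eMCs with *SS18-SSX1* the means run from 1.14% for *Ltf* to 29.9% for *Lcn2* and 140% for *Mmp9*, and no array of that group is plotted for *Elane*.

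The members did not keep the same proportions in cells and tumors. This was read from the intensity above the median of the 16 line arrays, as a percent of the same quantity in the mix, a measure chosen after the values were seen. In eMCs with *SS18-SSX1*, *Lcn2* reached 29.9% ± 0.917 (SD, n = 4), *S100a8* 26.9% ± 0.381, *S100a9* 21.8% ± 0.656 and *Mmp8* 15.1% ± 1.77. In the same arrays *Ngp* reached 3.31% ± 0.134, *Camp* 2.36% ± 0.413, *Mpo* 1.25% ± 0.178 and *Ltf* 1.14% ± 0.159. Thus *Ngp*, *Camp*, *Ltf* and *Mpo* stood at a much smaller share of the mix than calprotectin, *Lcn2* and *Mmp8*. *Mmp9* was at 140% ± 3.28. The medians over all 13 SS214 tumors were 28.6% for *S100a8*, 24.9% for *S100a9*, 6.95% for *Ngp*, 6.64% for *Camp*, 3.96% for *Mpo* and 3.74% for *Ltf*. For *Lcn2* the median was 2.75% and for *Mmp8* 1.14%.

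Relative to *S100a9* of the same array, *Lcn2* and *Mmp8* had a larger share in eMCs with *SS18-SSX1* than in tumors. This was read in the 4 eMC arrays with *SS18-SSX1* and in every tumor with *S100a9* above the lines, 11 SS and 13 SS214 tumors, whatever the level of the other gene. *Lcn2* was at 1.28 to 1.46 times the share of *S100a9* in eMCs, at 0.066 to 1.04 in SS214 tumors and at 0.351 or less in SS tumors. *Mmp8* was at 0.589 to 0.764 in eMCs, at 0.324 or less in SS214 tumors and at 0.041 or less in SS tumors. For both genes no tumor reached the range of the eMCs with *SS18-SSX1*. With the empty vector *Lcn2* was already at 11.6% ± 0.652 (SD, n = 4) of the mix and *Mmp8* at 3.39% ± 1.39. *S100a9* was at 1.22% ± 0.11 there, so the large shares of *Lcn2* and *Mmp8* relative to it were present without *SS18-SSX1*.

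The other granule genes overlapped. *Ngp* was at 0.14 to 0.161 in eMCs, and 11 of 13 SS214 tumors lay above that range and 2 below it, with a median of 0.383. For *Camp* (0.091 to 0.129 in eMCs) 11 SS214 tumors were above and 1 below, for *Ltf* (0.046 to 0.058) 11 above and 2 below, and for *Mpo* (0.048 to 0.065) 10 above and 3 below. In SS tumors 6 lay above the eMC range and 5 below for each of *Ngp*, *Camp* and *Ltf*, and 5 above and 6 below for *Mpo*. A share near or under 0 means that the gene was at the level of the lines. The level in the mix is the same divisor in every group, so the order of the groups does not depend on it. These shares were not tested.

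Across tumors the members were compared with *S100a9* within the sets of tumors that the breaks described above leave, since a correlation over both sides would mostly restate them. The 5 SS214 tumors below the break were too few. Among the 8 SS214 tumors with *S100a9* of 10.66 or more, Pearson's r was 0.987 for *S100a8* (Spearman's rho 0.929, exact permutation adjusted p = 0.000886), 0.971 for *Camp* (rho 0.905, exact permutation adjusted p = 0.00149) and 0.912 for *Mpo* (rho 0.833, exact permutation adjusted p = 0.0128), two-sided and adjusted over 50 relations. *Ngp* (0.833), *Mmp8* (0.829) and *Mmp9* (0.705) had exact permutation adjusted p of 0.0354, 0.0357 and 0.0483 (unadjusted 0.0177, 0.0186 and 0.027). The 50 relations also held those over whole groups, many with far smaller p, which lowers the adjusted p within the sets. The calls of these 3 genes, and of *Lcn2*, *Ngp* and *Mmp9* in SS tumors below, may lean on this. Relations within the sets were not among those planned. *Ltf* (0.63), *Elane* (0.698) and *Lcn2* (0.532) did not pass. Without the 2 tumors farthest from the median, r was 0.956 for *S100a8*, 0.896 for *Camp*, 0.781 for *Mpo*, 0.598 for *Ngp*, 0.523 for *Mmp8* and 0.157 for *Mmp9*. In those 6 tumors *S100a8* alone passed (exact permutation adjusted p = 0.0463). With fewer tumors and a narrower range of *S100a9*, this cannot tell whether the relations of the other 5 rest on the tumors left out.

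In the 6 SS tumors with *S100a9* of 7.59 or more, r was 0.99 for *S100a8* (rho 1.0, exact permutation adjusted p = 0.00817) and 0.912 for *Lcn2* (rho 0.943, exact permutation adjusted p = 0.0302). *Ngp* had r = 0.953 (rho 0.714, exact permutation adjusted p = 0.0412), and 0.408 without the 2 farthest tumors. *S100a8* and *Lcn2* then had r = 0.942 and 0.86, over 4 tumors, where the exact test cannot go below 0.0833. In the 6 SS tumors below the break *Mmp9* was lower where *S100a9* was higher (r = -0.859, rho -0.943, exact permutation adjusted p = 0.0302, and r = -0.826 over 4 tumors without the 2 farthest). *S100a9* ran there from 4.26 to 5.42 only, close to the lines' highest value of 4.49, and its partner *S100a8* did not pass (r = 0.596, rho 0.6, exact permutation adjusted p = 0.205). *Lcn2* is not read in these tumors, since 5 of the 6 lay within the range of the lines. Above the break *Mmp9* had r = -0.666 (rho -0.771, exact permutation adjusted p = 0.184). Of 30 relations of members with the levels of other cell type lists, none passed after adjustment. Over 13 SS214 tumors *Mmp9* and the osteoclast list gave r = 0.707 (rho 0.78, permutation adjusted p = 0.0745), and r = 0.781 without the 2 farthest. *S100a9* and the macrophage list, which came as near over the SS tumors, gave r = 0.868 in the 6 above the break (rho 0.886, exact permutation adjusted p = 0.194, and r = 0.799 without the 2 farthest) and r = 0.65 in the 6 below (rho 0.543, exact permutation adjusted p = 0.295).

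As a description, all 15661 genes tested were ordered by their correlation with *S100a9* over the 25 tumors after the group means were taken off. These points share 2 groups, and the breaks in *S100a9* weigh in each value. The members took ranks 1 to 5, with *S100a8* at 0.985, *Camp* at 0.945, *Ngp* at 0.943, *Ltf* at 0.892 and *Mpo* at 0.87. *Lcn2* was at rank 9 (0.799), *Elane* at rank 31 (0.684), *Mmp8* at rank 331 (0.504) and *Mmp9* at rank 834 (0.389). The nearest other genes were *Prtn3* (0.841), *Fpr2* (0.821), *B430306N03Rik* (0.804), *Chil3* (0.766), *Pf4* (platelet factor, 0.764), *Ctsg* (0.763), *Ifitm6* (0.745) and *Arhgdib* (0.735). For *Elane* the nearest others were *Dok3* (0.756), *Cd3e* (0.748), *Slco2b1* (0.736), *Ltb4r1* (0.727), *Ccn5* (0.71), *B430306N03Rik* (0.702), *Il10rb* (0.7) and *Lipa* (0.699), and its nearest member was *Ngp* (0.716). *Elane* was above every line array in only 1 of 12 SS and 7 of 13 SS214 tumors. Its order of genes thus rests largely on values at or below the level of the lines.

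In the cultured lines the question was whether *miR-214* itself moved these genes in tumor cells. The members other than *Mmp9* lay at low levels there, from which a fall could hardly be seen. No member was called in SS40, where 0.0194% of 15466 genes were called higher and 0.181% lower, or in SS64, where 0.0584% of 15424 genes were called higher and 0.182% lower. The methods' t-test also called none after adjustment. At an unadjusted p under 0.05 limma gave 2 members in SS40 and 0 in SS64, and in SS64 no member had groups apart, where 19.4% of all genes did. *Mmp9* was at 5.16, 5.2, 5.69 and 5.68 in SS40 with NC and at 4.32, 4.67, 4.83 and 5.0 with *miR-214*. The groups did not overlap, which held for 1 of 10 members and for 10.7% of all genes, but the change of -0.73 on the log2 scale did not pass (SE 0.178, limma adjusted p = 0.14). Its second probe set gave means of 5.08 and 5.09. *S100a8*, at 3.88, 3.73, 3.6 and 3.55 against 3.88, 4.01, 4.03 and 4.13, differed by 0.33 near the floor (limma adjusted p = 0.186). In SS64 *Mmp9* was at 3.9, 3.97, 4.85 and 4.41 against 3.81, 3.61, 3.94 and 4.34, overlapping, and differed by -0.36 on the log2 scale (SE 0.203, limma adjusted p = 0.388). The test of the difference between the lines called no member, where 0.24% of 15852 genes were called, and gave *S100a8* the smallest p (log2 -0.41, limma adjusted p = 0.319).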

How the data were processed

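Total RNA of 53 samples was hybridized to GeneChip mouse arrays. The authors deposited 1 linear intensity per probe set and array (45141 probe sets), made, per the submitters' processing notes, with MAS5 (version not given in the sources used here), and analysed by the authors in GeneSpring. Here intensities were raised to a floor, the median of the arrays' 20th percentiles (11.7), and log2 was taken without further scaling. Of the probe sets 28898 had 1 gene symbol, 551 several, 15588 none and 104 were controls. A probe set entered a comparison when at least 4 of its arrays exceeded the floor, and limma 3.58.1 in R 4.3.3 was fitted to the groups compared, with Benjamini-Hochberg adjustment over the probe sets tested. Each gene was read from its brightest probe set. A call needed an adjusted p below 0.05 together with a fold change above 2. The fits were tested on simulated data. Precision is limited by the array number, and p-values measure the spread between these samples, which may be technical.

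Groups came from the sample labels. The members were always named, and other genes as the largest called changes of a list or the nearest by correlation; *Chil3*, *Padi4*, *Olfm4*, *F13a1*, *Hba-a1*, *Cxcl1*, *Cxcl5*, *Cxcl15*, *Ppbp* and *Clec4d* were named after their values were seen. The members, the lists and the tests were chosen with earlier results of these data known. Correlations were tested by permutation (100000 resamples, exact under 10 tumors) in Python 3.11.15, and figures were drawn with matplotlib 3.10.9. The main fits did not pair arrays by replicate number. Same-numbered deviations correlated at 0.221 to 0.346 in SS64, at 0.011 to 0.153 in eMCs and at -0.281 to 0.464 in SS40. The alternatives were quantile normalization, other floors and filters, the mean over probe sets, 1 fit of all arrays, the methods' t-test, replicates left out, the replicate block, and covariates. Promoter windows were searched on both strands for the 5 motifs spelled out in the text, and *Mmp9* had no entry among the promoters used here.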

Additional observations from a re-analysis of the deposited data

Results flagged for a closer look

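In 3 of the 70 sets of member and group with 4 arrays or more and up to 10 that were checked, 1 array lay further from the others than Dixon's 95% limit for a single outlier allows, and chance gives 1 in 20, or 3.5 of 70. *S100a8* in eMCs with *SS18-SSX1* was 10.87 in replicate 2 and 10.83 to 10.84 in the other arrays, a gap that is small on the log2 scale. *S100a9* with the empty vector was 6.75 in replicate 1 and 6.96 to 7.0 in the others. *Mpo* with the empty vector was 4.36 in the same array and 4.92 to 5.0 in the others.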

How the results depend on the processing

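Of 130 recomputed counts of called members, correlations or indices, 114 kept within 1.5 times (or 1 SD) of the value given and 16 did not, and of 671 changes of single members 618 kept their direction and call, 44 lost the call, 3 gained it and 6 turned their sign. In eMCs 8 members were called with the replicate block as without it, and in SS40 and SS64 0 with the paired fit, so that the block changed no call. The count in eMCs was 4 in 1 fit of all arrays. For SS against SS214 tumors it was 1 with the red cell list, 1 with the *Gapdh* ratio and 4 with the macrophage list as a covariate. The last covariate and the fits without named tumors were chosen after seeing the data. For SS tumors against eMCs the count was 2 without a floor and 1 to 2 without single replicates. Against SS40 it was 1 to 2 and against SS64 1 to 1 without single replicates, and 1 against SS64 with the methods' t-test after adjustment. The *S100a8* calls against the lines were lost with the floor at the 40th percentile, no filter or the methods' t-test. For relations with other lists over whole tumor groups, 2 of 12 passed when adjusted over those alone, and 1 without the 2 farthest tumors.

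The 6 changes of sign were all of uncalled members. Against eMCs they were *Ngp* (-0.083) and *S100a9* (-0.075) after quantile normalization, and *Mpo* (-0.1, range to 0.114) and *S100a9* (-0.003, range to 0.079) without replicate 1 of the empty vector. In SS214 against SS tumors they were *Mmp9* (0.117) without the 6 tumors high in lung genes and *Mmp8* (-0.033) with the red cell list. The causes were not tested. *Mmp8* at the floor in 9 of 12 SS tumors has no room to show a lower level.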

Other observations

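Of 8 genes that draw neutrophils or make them grow, 5 were called lower in SS tumors when set against empty-vector eMCs, 3 were not called, and 8.67% of all genes were called lower. *Cxcl1* and *Cxcl5* had the largest differences and were chosen after their values were seen. *Cxcl1* was at a mean log2 level of 9.40 (SD 0.034, n = 4) in eMCs with the empty vector, 9.76 in SS40 with NC, 5.31 in SS64 with NC and 3.70 (SD 0.114, n = 12) in SS tumors, lower than in eMCs by 5.70 on the log2 scale (limma adjusted p = 2.09e-19). *Cxcl5* was at 9.68, 11.43, 3.83 and 3.62 in the same groups. *Cxcl15* and *Ppbp*, also called lower in SS tumors, were not low in every tumor: in SS214 tumors they reached 10.02 and 9.02, with means of 6.05 and 5.64 against 5.83 and 4.94 in those eMCs. In SS40, *miR-214* went with lower *Ppbp* (from 7.18 to 5.72, limma adjusted p = 0.0108) and *Cxcl5* (from 11.43 to 10.39, limma adjusted p = 0.00422), where 0.181% of genes were called lower. In SS64 none of 8 attractants was called. *Clec4d*, a lectin of mature neutrophils and macrophages, was at a mean of 8.52 in eMCs with the empty vector and 6.01 in the mix.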
